A study of Mus musculus with 54 samples.

Results

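Glutathione S-transferases are enzymes that join the tripeptide glutathione to reactive, electron-poor molecules, which makes them more soluble and lets transporters carry them out of the cell. The soluble enzymes fall into classes, and 10 genes of the mu, omega and theta classes, chosen by their symbols among the 54232 genes in the count files, are described here across kidney, brain and heart. The mu class was represented by Gstm1, Gstm2, Gstm4, Gstm5 and Gstm7, the omega class by Gsto1 and Gsto2, and the theta class by Gstt1, Gstt2 and Gstt3. Mu enzymes are best known for conjugating aromatic electrophiles and products of lipid oxidation. Omega enzymes have a cysteine at the active site and act more as thiol transferases and dehydroascorbate reductases than as conjugating enzymes. Theta enzymes use a serine at the active site and act on small halogenated compounds and sulfate esters. In the kidney and heart, these enzymes are part of the defence against oxidants, and in the brain some of them are found in astrocytes and at the borders with blood and cerebrospinal fluid.

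RNA was sequenced from whole tissue of male BL6 mice that had received Cmpd60, an inhibitor of the histone deacetylases HDAC1 and HDAC2, or vehicle (DMSO, PEG400 and saline). Cmpd60 was given at 22.5 mg/kg by daily intraperitoneal injection for 14 days. At 20 months of age, the groups were kidney (6 Cmpd60-treated and 5 vehicle mice), brain (6 and 6) and heart (5 and 6). Brains also came from a cohort of 6 to 7 months with mice of the APPSWE-1349 line, a BL6 line with a transgene for human APP carrying the Swedish mutation, and their littermates without the transgene. In this cohort, 4 Cmpd60-treated and 5 vehicle APPSWE brains and 5 Cmpd60-treated and 5 vehicle littermate brains were compared. APPSWE library s139 was left out, since its sample label gives vehicle and the heading of the study's table gives Cmpd60. For the kidney, the titles and source names of the samples were followed, which the column headings of the study's kidney table share for all 11 libraries. Another field of the same labels gives the opposite treatment, and following it would turn the sign of every Cmpd60 difference within kidney and leave its size as it is. It would also make the treated kidneys the vehicle level and change the kidney comparisons with the other tissues, as given beside them.

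Levels are given as CPM, the count of a gene scaled to the size of its library after TMM normalization. This scaling was done apart for kidney, brain and heart of 20-month mice and for the APPSWE cohort. CPM values are therefore not on a common scale between these sets. Log2 differences between tissues or cohorts come from fits that scaled their libraries together, and can depart from ratios of the printed levels. Gene counts per library ranged from 23584609 to 57430113, and a count of 0 in the smallest library allowed up to 0.127 CPM, a limit that covers counting error only. Markers of the labelled tissues were present, with summed levels of at least 6930 CPM for 7 proximal tubule genes in kidney, 53400 CPM for 7 heart muscle genes in heart and 5200 CPM for 6 neuron genes in brain. Mouse App did not differ between the vehicle groups of the APPSWE cohort (log2 difference 0.06, SE 0.06, adjusted p = 0.886 in edgeR), and the human transgene was not counted apart from it, so the genotype labels could not be checked. The number of genes detected in the cohort ran from 15044 to 24821, and libraries s140, s141, s146, s152 and s155 lay below 17000, against at least 17809 in the libraries of 20-month tissue. In the 20-month brain, the Cmpd60-treated libraries had from 29646412 to 57430113 counts and the vehicle libraries from 26402957 to 32344641.

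Many of these genes are close copies of each other, and the sequences show where their reads can and cannot be told apart. On chromosome 3 the mu genes lie in the order Gstm5, Gstm7, Gstm6, Gstm3, Gstm2, Gstm1, Gstm4, on chromosome 10 the theta genes in the order Gstt3, Gstt1, Gstt4, Gstt2, and on chromosome 19 Gsto1 is next to Gsto2. In the coding sequences of the GENCODE annotation of mouse build NCBIM37, Gstm1 was 89.5% identical to Gstm3, 86.0% to Gstm2, 82.6% to Gstm7, 80.2% to Gstm4 and 69.5% to Gstm5. Gsto1 and Gsto2 were 66.2% identical, Gstt1 and Gstt3 75.5%, Gstt1 and Gstt2 60.6%. The longest run of identical bases between Gstm1 and a named paralog was 112 bases, shared with Gstm3, and is shown because reads from it fit both genes. Bases 389 to 500 of the coding sequences are printed in lower case, with capitals where a gene differs from Gstm1, at 16 bases in Gstm2, 22 in Gstm7 and 30 in Gstm4.
Gstm1: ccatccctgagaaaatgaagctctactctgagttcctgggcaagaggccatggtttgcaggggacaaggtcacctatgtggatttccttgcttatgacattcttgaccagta
Gstm3: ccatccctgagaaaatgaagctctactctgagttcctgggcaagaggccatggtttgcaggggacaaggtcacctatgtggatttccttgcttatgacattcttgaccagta
Gstm2: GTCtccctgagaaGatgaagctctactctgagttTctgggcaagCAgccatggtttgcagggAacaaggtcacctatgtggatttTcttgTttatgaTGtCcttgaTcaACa
Gstm7: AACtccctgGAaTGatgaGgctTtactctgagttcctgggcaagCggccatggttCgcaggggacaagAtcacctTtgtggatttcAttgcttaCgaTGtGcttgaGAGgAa
Gstm4: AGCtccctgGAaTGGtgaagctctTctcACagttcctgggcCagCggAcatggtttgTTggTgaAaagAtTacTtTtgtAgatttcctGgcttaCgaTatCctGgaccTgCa

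Windows of 100 bases along each member's longest transcript were then compared with the transcripts of all other genes in the protein-coding set of that annotation. Transcripts outside this set were not searched. Of the windows in Gstm1, 1.68% occurred also in Gstm3, and of the windows in Gstt3, 23.9% occurred also in the overlapping model RP23-333M15.8, while the other 8 members shared none. With windows of 75 bases, the share was 5.84% in Gstm1, 25.0% in Gstt3 and 0.303% in Gstm2. With windows of 50 bases, it was 14.8% in Gstm1, shared with Gstm2, Gstm2-ps1 and Gstm3. In Gstm2 it was then 5.62%, shared with Gstm1 and Gm6665, and in Gstt3 26.0%. The counting leaves out reads that align equally well to several places or overlap several genes. The counts of Gstm1, Gstt3 and, for short stretches, Gstm2 were therefore uncertain there. Gstm3 itself had too few counts to be tested in the fits of brain and of heart.

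The 250 bases before an annotated start are shown for Gstm1 and Gsto1, the members whose response to Cmpd60 differed between kidney and heart, and for Gstm5. They were read from RefSeq promoter sequences of build GRCm38.p6, in which 9 of the 10 members had an entry. Gstm1 is at chr3:108017819-108018068 on the minus strand, Gsto1 at chr19:47854723-47854972 on the plus strand and Gstm5 at chr3:107895604-107895853 on the plus strand. Capitals mark a match to TGACNNNGC, the core of the antioxidant response element bound by NRF2, or to ACGTG, the core bound by hypoxia-inducible factors, each searched on both strands.
Gstm1: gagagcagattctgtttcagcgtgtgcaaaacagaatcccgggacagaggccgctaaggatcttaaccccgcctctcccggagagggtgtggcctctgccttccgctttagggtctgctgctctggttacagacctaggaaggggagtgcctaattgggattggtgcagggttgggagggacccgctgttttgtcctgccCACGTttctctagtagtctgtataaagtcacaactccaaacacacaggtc
Gsto1: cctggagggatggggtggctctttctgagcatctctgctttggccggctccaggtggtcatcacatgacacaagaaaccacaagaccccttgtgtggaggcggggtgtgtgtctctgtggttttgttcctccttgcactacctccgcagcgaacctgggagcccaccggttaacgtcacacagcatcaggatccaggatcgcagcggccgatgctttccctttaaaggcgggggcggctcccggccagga
Gstm5: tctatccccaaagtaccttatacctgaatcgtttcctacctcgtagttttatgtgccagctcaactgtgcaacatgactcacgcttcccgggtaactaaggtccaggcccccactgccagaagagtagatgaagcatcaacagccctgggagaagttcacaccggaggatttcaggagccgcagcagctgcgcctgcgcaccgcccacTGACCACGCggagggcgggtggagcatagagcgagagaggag

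In Gstm1 the capitals are ACGTG read on the opposite strand, 50 bases before the start, and in Gstm5 they are TGACNNNGC, 42 bases before it. These Gstm1 and Gstm5 stretches were printed because they hold a match. Gstm1 has another annotated start, whose window at chr3:108017924-108018223 held no match to either motif. No match to either motif lay in the Gsto1 window. Windows of 300 bases, which also hold the first 50 bases of the gene, numbered 14 for the 9 members. TGACNNNGC occurred in 2 of these 14, in Gstm5 and Gstm7, and in 12.4% of all 32851 promoter windows. ACGTG occurred in 2 of the 14, in Gstm1 and Gstt1, and in 19.6% of all windows. These matches describe letters and not binding.

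Gstm1 was the most abundant member per length of exon in all 3 tissues of the vehicle mice, and the members that followed differed from tissue to tissue. Levels between genes are given as CPM per kilobase of exon, with all exons of a gene joined in the GENCODE annotation of build NCBIM37. This length can exceed that of a transcript, as in Gsto1 with 1968 bases against 1182 in its longest transcript. Orders and shares of members at close levels depend on the length chosen, and other lengths were not tested. In kidney, Gstm1 was at 297 ± 27.8 CPM per kilobase (SD, n = 5), followed by Gstt2 at 105 ± 11.7, Gstm5 at 74.4 ± 7.22 and Gstt1 at 70.5 ± 4.86. Gstm2 at 21.5 ± 2.86, Gsto1 at 15.9 ± 1.66, Gstm4 at 8.40 ± 0.452, Gstt3 at 7.88 ± 0.354, Gstm7 at 5.23 ± 0.952 and Gsto2 at 0.503 ± 0.205 CPM per kilobase completed the order. Of these neighbours, Gstm5 and Gstt1, Gstm2 and Gsto1, and Gstm4 and Gstt3 overlapped between libraries.

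In brain, Gstm1 at 104 ± 8.68 CPM per kilobase (SD, n = 6) and Gstm5 at 67.1 ± 7.72 stood above Gstm7 at 12.99 ± 1.09 and Gsto1 at 9.75 ± 0.707. The remaining members ran from Gstt1 at 5.14 ± 0.634 down through Gstm4, Gstt2, Gstm2 and Gstt3 to Gsto2 at 0.481 ± 0.134 CPM per kilobase, and Gstt1 overlapped with Gstm4 and Gstt3 with Gsto2. In heart, Gstm1 was at 192 ± 9.62 CPM per kilobase (SD, n = 6), Gsto1 at 59.8 ± 9.27 and Gstm2 at 58.6 ± 4.06, the latter pair overlapping. Gstm5 at 22.9 ± 3.21 overlapped with Gstm7 at 19.7 ± 2.39, Gstm4 with Gstt2, and Gstt3 with Gsto2, which was again the lowest at 0.469 ± 0.181 CPM per kilobase.

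**Figure D1:**
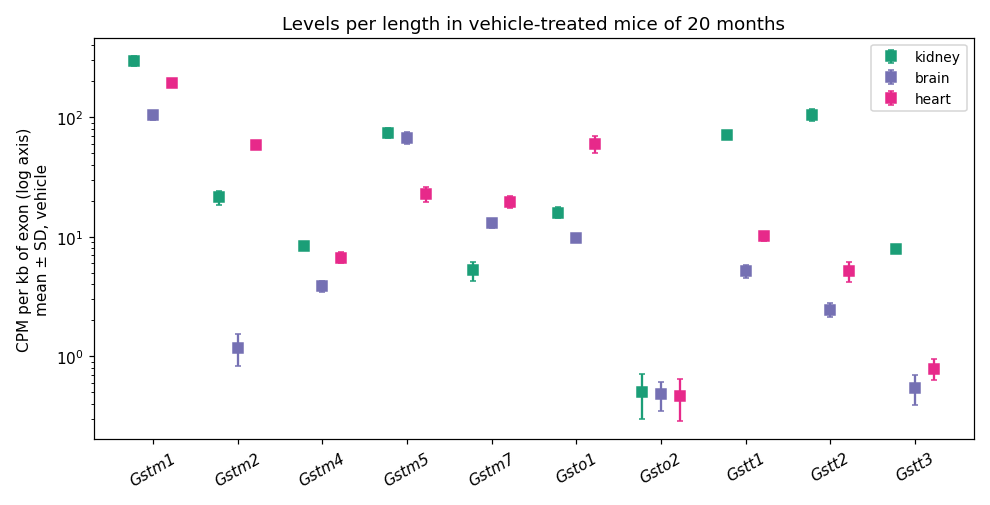
Level of each member per length in vehicle kidney, brain and heart of 20-month mice, as mean CPM per kilobase of exon on a log axis with bars of 1 SD (n = 5, 6 and 6). Gstm1 is the highest gene in each tissue, followed by Gstt2 in kidney, Gstm5 in brain, and Gsto1 and Gstm2 in heart. Each tissue was scaled by itself, so heights can be compared between genes of a tissue and not between tissues.

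The make-up of each class followed these levels. Gstm1 held 73.0% of the summed per-kilobase level of the 5 mu members in vehicle kidney, 55.1% in brain and 64.1% in heart, and Gstm5 held 35.4% in brain. Gstm2 was 19.5% of the mu level in heart, 5.28% in kidney and 0.617% in brain. Gsto1 made up at least 95.3% of the omega level in every tissue. Within the theta class, Gstt2 led in kidney with 57.1%, and Gstt1 led in brain and in heart with 63.1% in each.

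Differences in level between tissues were tested among vehicle mice in a fit of all 34 libraries of 20-month tissue, and a gene was called where edgeR gave an adjusted p below 0.05. Such differences were common to most genes, since 72.5% of all 27105 genes tested were called between kidney and brain, 56.7% between kidney and heart and 72.1% between brain and heart. Between kidney and brain, 9 of 10 members were called. Higher in kidney were 8 members, where 32.8% of all genes were, and the largest differences on the log2 scale were in Gstt2 (5.58, SE 0.16), Gstm2 (4.36, SE 0.16), Gstt3 (4.03, SE 0.19) and Gstt1 (3.95, SE 0.11). Gstm1 (1.68), Gstm4 (1.30), Gsto1 (0.88) and Gstm5 (0.32) were higher by less, and the Gstm5 call was lost with DESeq2 size factors (0.19, adjusted p = 0.0663 in edgeR). Gstm7 was lower in kidney (-1.14, SE 0.13), as were 39.8% of all genes, and Gsto2 was not called.

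Between kidney and heart, Gstt2 (3.91, SE 0.14), Gstt3 (2.90, SE 0.18), Gstt1 (2.39, SE 0.10) and Gstm5 (1.29, SE 0.09) were higher in kidney on the log2 scale. Gstm1 was higher by 0.22 (SE 0.09, adjusted p = 0.0394 in edgeR), a call that was lost under DESeq2 (adjusted p = 0.173) and without any of 14 libraries in turn. Gstm7 (-2.33, SE 0.13), Gsto1 (-2.32, SE 0.09) and Gstm2 (-1.86, SE 0.14) were lower in kidney than in heart, so that 5 members were higher, 3 lower, against 31.1% and 25.6% of all genes, and Gstm4 and Gsto2 not called. With the kidney treatments exchanged, the number of members called stayed at 9 against brain and 8 against heart, and the Gstm1 difference from heart was 0.79 (SE 0.09). Between brain and heart, 8 members were lower in brain, where 28.9% of all genes were, most of all Gstm2 (-6.22, SE 0.17) and Gsto1 (-3.20, SE 0.09). The other 6 differences ran from -1.67 in Gstt2 to -1.13 in Gstt3, Gstm5 was higher in brain (0.97, SE 0.09), as were 43.2% of all genes, and Gsto2 was not called.

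In the kidney of 20-month mice, Gsto1 rose with Cmpd60 and was the member called, and Gstm1 was higher by a similar amount without passing the adjustment over all genes. Over all 20698 genes tested, 0.300% were called and 0.188% were called higher. The members' differences had a median of 0.23 on the log2 scale against 0 for all genes, 9 of 10 were positive, and 3 had an unadjusted p below 0.05, as did 11.3% of all genes.

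Gsto1 (ENSMUSG00000025068) encodes the omega enzyme that reduces dehydroascorbate and methylated arsenic compounds. Its level was 28.1, 30.5, 30.0, 36.8 and 31.3 CPM in the vehicle kidneys 45 to 49, and from 40.1 to 46.9 CPM (median 45.2) in the 6 Cmpd60-treated kidneys. Every treated kidney was above every vehicle kidney, a lack of overlap found with higher treated values in 1.10% of all genes. The means were 31.4 ± 3.26 CPM (SD, n = 5) for vehicle and 44.6 ± 2.42 CPM (SD, n = 6) after Cmpd60, a log2 difference of 0.51 (SE 0.08, 95% interval 0.33 to 0.68, adjusted p = 0.0169 in edgeR's quasi-likelihood test with Benjamini-Hochberg adjustment) or 1.42-fold. The call was lost without vehicle replicate 45 (adjusted p = 0.0571 in edgeR), 46 (0.0708), 47 (0.0732) or 49 (0.0511), and the difference stayed between 0.48 and 0.58 in every such fit.

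Gstm1 (ENSMUSG00000058135), the main mu enzyme of these tissues, was at 370, 443, 394, 398 and 465 CPM in the vehicle kidneys 45 to 49. In the Cmpd60-treated kidneys it lay between 488 and 781 CPM with a median of 598, again without overlap, and the treated values were more spread than the vehicle values. The means were 614 ± 118 CPM (SD, n = 6) and 414 ± 38.8 CPM (SD, n = 5), and the log2 difference of 0.57 (SE 0.13, 95% interval 0.29 to 0.84) had an adjusted p of 0.0924 in edgeR. Of 16 alternatives, 1 called it, DESeq2 (adjusted p = 0.00226), and the adjusted p ranged up to 0.251.

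Gstt1 (ENSMUSG00000001663), a theta enzyme known for acting on dihalomethanes, went from 108 ± 7.42 CPM (SD, n = 5) to 126 ± 7.996 CPM (SD, n = 6) in the kidney. Its log2 difference of 0.22 (SE 0.08) had an adjusted p of 0.288 in edgeR, and the groups overlapped at vehicle replicate 47 with 120.0 CPM. Gstt3 (ENSMUSG00000001665) was within 19.7 to 21.6 CPM in the vehicle kidneys and within 17.3 to 33.8 CPM in the treated kidneys, where replicates 50 and 51 were high and replicate 52 was below every vehicle mouse. The log2 differences of Gstm2 (0.23, SE 0.13), Gstm5 (0.20, SE 0.10), Gstm4 (0.17, SE 0.11), Gstt2 (0.07, SE 0.10), Gsto2 (0.41, SE 0.38) and Gstm7 (-0.09, SE 0.17) had intervals that included 0. Summed over the class, the mu genes were at 568 ± 43.9 CPM (SD, n = 5) with vehicle and 789 ± 121 CPM (SD, n = 6) with Cmpd60, the theta genes at 272 ± 22.5 and 302 ± 24.0 CPM.

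The 7 proximal tubule markers had a summed level between 15800 and 20800 CPM in the vehicle kidneys and between 6930 and 16200 CPM in the Cmpd60-treated kidneys, with replicate 55 lowest and no marker at 0. Of the 7, 3 had a p below 0.05 with a lower level and 0 were called in edgeR. The 5 genes listed as liver markers were at 1330 to 1610 CPM with vehicle and 531 to 1290 CPM with Cmpd60, 2 higher and 2 lower at a p below 0.05, with Ttr called lower in edgeR and none at 0. Ttr is also in the list of choroid plexus markers, and whether these genes were read from liver cells was not tested. In whole tissue, fewer cells of a type and less RNA per cell cannot be told apart, and the part of these shifts in the Gsto1 and Gstm1 values was not tested. Without replicate 55, the Gsto1 difference was 0.51 (adjusted p = 0.0172 in edgeR).

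**Figure D2:**
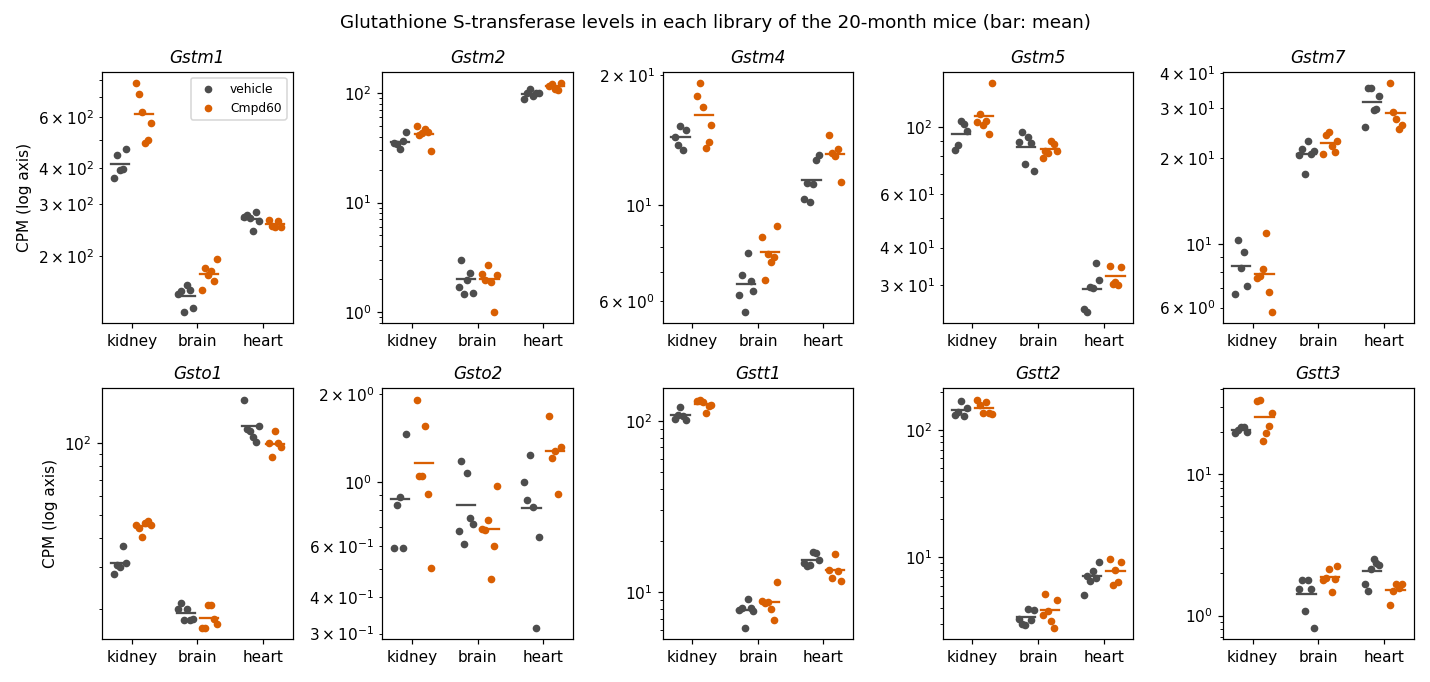
CPM of the 10 members in each kidney, brain and heart library of 20-month mice, 1 panel per gene on a log axis, with vehicle and Cmpd60-treated libraries as points and the group mean as a bar. The Gsto1 and Gstm1 points of the treated kidneys lie above all vehicle kidneys, and the other pairs of groups overlap. Each tissue was scaled by itself, so heights are not on a common scale between tissues.

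In the brain of 20-month mice, none of the members was called between Cmpd60 and vehicle in edgeR, where 0.0205% of 24438 genes were. The count was 0 in limma-voom and 1 in DESeq2, and 3 members had an unadjusted p below 0.05 in edgeR, as did 13.8% of all genes. The median of the members was 0.14 on the log2 scale against 0.01 for all genes, with 7 of 10 positive.

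Gstm1 was at 129 to 159 CPM in the vehicle brains with a median of 150 and at 153 to 194 CPM in the Cmpd60-treated brains with a median of 175. In every member the brain groups overlapped, whereas in 0.925% of all genes they did not, and for Gstm1 they did so at vehicle replicate 30, at 159 CPM, and treated replicate 33, at 153 CPM. The means were 145.3 ± 12.1 CPM and 174 ± 14.4 CPM (SD, n = 6 each), a log2 difference of 0.26 (SE 0.06, 95% interval 0.13 to 0.39, adjusted p = 0.111 in edgeR, 0.0226 in DESeq2). Gstm4, another mu enzyme, differed by 0.25 (SE 0.09, adjusted p = 0.273 in edgeR), from 6.58 ± 0.701 to 7.79 ± 0.789 CPM, and Gstt3 by 0.40 (SE 0.19, adjusted p = 0.361 in edgeR), at levels of 1.43 ± 0.394 and 1.88 ± 0.282 CPM (SD, n = 6 each). Gsto1 was at 19.2 ± 1.39 CPM with vehicle and 18.4 ± 1.92 CPM with Cmpd60, and the interval of its log2 difference ran from -0.22 to 0.09. Gstm5, the mu gene with the largest share after Gstm1 in brain, was at 85.7 ± 9.87 and 84.3 ± 3.92 CPM, with an interval from -0.16 to 0.12. Neuron markers had a summed level of 5200 to 6000 CPM with vehicle and 5610 to 6950 CPM with Cmpd60, 4 of 6 with a p below 0.05 and 0 called in edgeR, none at 0. The 5 endothelial markers were at 112 to 131 CPM with vehicle and 117 to 168 CPM with Cmpd60, 2 of them higher at a p below 0.05 and 0 called in edgeR, none at 0, and for Cdh5 every treated brain was above every vehicle brain. The 7 astrocyte markers were at 3290 to 3630 and 3460 to 4090 CPM, 1 higher and 2 lower at a p below 0.05 and 0 called in edgeR, none at 0. The part of these markers in the Gstm1 difference was not tested.

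In the heart of 20-month mice, 0 members were called in edgeR and in limma-voom, where 1.18% of 19452 genes were called in edgeR, and DESeq2 called Gstm2. In edgeR 3 members had an unadjusted p below 0.05, as did 13.5% of all genes, and the members' median of 0.04 came from 5 positive and 5 negative differences. Gstm2 was the heart's leading mu gene after Gstm1. It was at 88.0 to 108 CPM with vehicle (median 100.1) and at 117, 120, 109, 107 and 123 CPM in the treated hearts 68 to 72, so that the groups overlapped at vehicle replicate 64 and treated replicate 71. For none of the members were the heart groups apart, as they were in 2.69% of all genes. The means were 98.4 ± 6.82 CPM (SD, n = 6) and 115 ± 6.89 CPM (SD, n = 5), a log2 difference of 0.23 (SE 0.06, 95% interval 0.09 to 0.36, adjusted p = 0.0990 in edgeR, 0.0282 in DESeq2).

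Gsto1 had a negative difference in the heart. It was at 102 to 153 CPM with vehicle (median 114) and at 99.8, 87.9, 113, 100.3 and 96.4 CPM in the treated hearts 68 to 72, with vehicle replicate 62 far above the others. The means of 118 ± 18.2 CPM (SD, n = 6) and 99.4 ± 8.95 CPM (SD, n = 5) gave a log2 difference of -0.24 (SE 0.09, adjusted p = 0.251 in edgeR). Gstt3 differed by -0.45 (SE 0.21, adjusted p = 0.358 in edgeR) at levels of 2.08 ± 0.402 CPM (SD, n = 6) and 1.52 ± 0.201 CPM (SD, n = 5). Intervals that included 0 were found for Gsto2 (0.66, SE 0.32), Gstm4 (0.19, SE 0.10), Gstt2 (0.14, SE 0.16) and Gstm5 (0.13, SE 0.09). The same held for Gstt1 (-0.20, SE 0.10) and Gstm7 (-0.12, SE 0.11). Gstm1 was at 268 ± 13.4 CPM with vehicle and 257 ± 7.30 CPM with Cmpd60, and its interval, from -0.17 to 0.05, lay below that of the kidney, 0.29 to 0.84. Heart muscle markers overlapped between the groups, at 54300 to 62500 and 53400 to 63300 CPM. Of 5 endothelial markers, 2 were higher in the treated hearts at a p below 0.05 and 0 were called in edgeR, at summed levels of 787 to 883 and 840 to 1100 CPM with none at 0, and their part in the differences was not tested.

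**Figure D3:**
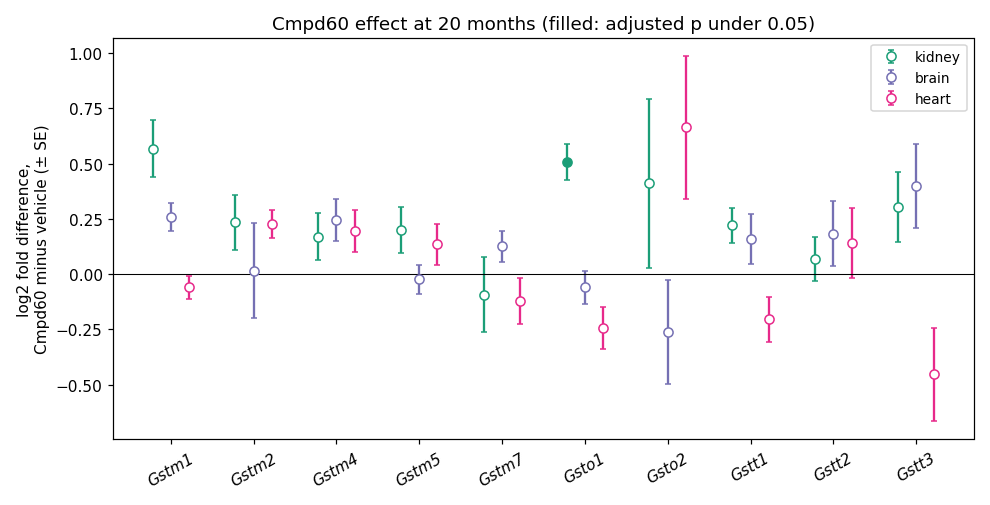
Cmpd60 minus vehicle difference of each member in kidney, brain and heart of 20-month mice, in log2 units with bars of 1 SE from edgeR, filled where the adjusted p was below 0.05. Gsto1 in kidney is the filled point at 0.51. In heart, 5 members lie on the negative side, Gstt3 and Gsto1 lowest, and 5 on the positive side, Gsto2 highest.

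Whether the response to Cmpd60 differed between tissues was tested by interaction terms in the fit of all 34 libraries. The labels state 6 Cmpd60-treated and 7 vehicle mice of 20 months, so these libraries come from at most 13 mice if they hold no others, and tissues share animals. Since the labels do not tie tissues to mice, the fit took the libraries as independent, and the effect of shared animals on its p-values, here and between the tissues of vehicle mice, was not tested. Between kidney and heart, 2 members were called, both with the more positive response in kidney, against 0.107% of all genes in that direction and 0.350% in either. In all, 4 members had an unadjusted p below 0.05, as did 11.7% of all genes. The Gsto1 response was 0.74 higher in kidney than in heart on the log2 scale (SE 0.13, 95% interval 0.48 to 0.99, adjusted p = 0.00350 in edgeR). For Gstm1 it was 0.61 higher (SE 0.13, 95% interval 0.35 to 0.87, adjusted p = 0.0207 in edgeR). Both were called under each of 39 alternatives that keep the kidney labels, with adjusted p up to 0.0110 for Gsto1 and 0.0465 for Gstm1. With the kidney treatments exchanged, as that 1 label field has them against the titles, source names and table headings, the difference was -0.28 for Gsto1 (SE 0.12, adjusted p = 0.229 in edgeR), no longer called, and -0.52 for Gstm1 (SE 0.13, adjusted p = 0.0187 in edgeR), called in the opposite direction. Gstt3 (0.75, SE 0.25, adjusted p = 0.205 in edgeR) and Gstt1 (0.41, SE 0.14, adjusted p = 0.228 in edgeR) were the other two with an unadjusted p below 0.05, in the same direction. For Gstm2, Gstm4 and Gstm5, the kidney minus heart differences were 0.00, -0.04 and 0.05, with intervals of -0.39 to 0.38, -0.33 to 0.26 and -0.22 to 0.32.

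Between kidney and brain, 0 members were called in edgeR, where 0.0885% of all genes were, and 1 in DESeq2. Gsto1 came nearest with a difference of 0.54 (SE 0.12, adjusted p = 0.0788 in edgeR, 0.00788 in DESeq2), and it was called in edgeR without heart vehicle replicate 62, kidney Cmpd60 replicate 52 or kidney vehicle replicate 48. Gstm1 had a difference of 0.28 (SE 0.13, adjusted p = 0.458 in edgeR). These 2 members had an unadjusted p below 0.05 with a positive difference, as did 3.81% of all genes, or 1034 genes, while 1676 genes had a negative one, and limma-voom called 0. With the kidney treatments exchanged, the difference was -0.48 for Gsto1 (SE 0.12, adjusted p = 0.0562 in edgeR) and -0.86 for Gstm1 (SE 0.13, adjusted p = 0.000326 in edgeR). Between brain and heart, 0 members were called in edgeR, limma-voom and DESeq2, against 0.0517% of all genes in edgeR. An unadjusted p below 0.05 in edgeR was found for 9.08% of all genes and for 4 members, namely Gstt3 (0.88, SE 0.27), Gstt1 (0.38, SE 0.15), Gstm1 (0.33, SE 0.13) and Gsto2 (-0.91, SE 0.44).

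In the brains of the APPSWE cohort, 0 members were called by edgeR, limma-voom or DESeq2 in any of 5 comparisons, and 0 had an unadjusted p below 0.05 in edgeR. The share of all genes called in edgeR was 0% for Cmpd60 against vehicle in APPSWE mice, in littermates and for the interaction, 0.00862% between the vehicle groups and 0% between the Cmpd60-treated groups. An unadjusted p below 0.05 was found for 9.46%, 3.67% and 5.09% of all genes in the first set and for 8.67% and 1.34% between the genotypes. In 2.31% of all genes the Cmpd60 and vehicle groups of the APPSWE mice did not overlap, and in 0.509% those of the littermates, and 0 members were among them. The spread was wide in this cohort, with a biological coefficient of variation of 72.9% against 11.4% in the 20-month brain. Gstm1 in the vehicle APPSWE brains s140, s142, s144, s145 and s146 was at 132, 172, 172, 179 and 168 CPM, and in the treated brains s141, s143, s147 and s148 at 150.1, 163, 172 and 178 CPM. Its means were 164 ± 18.7 CPM (SD, n = 5) and 166 ± 12.2 CPM (SD, n = 4), and the log2 difference was 0.01 (SE 0.12). In littermates, Gstm1 was at 180.3, 170.0, 152, 177 and 114 CPM with vehicle and at 172, 186, 159, 212 and 154.2 CPM with Cmpd60, and the log2 difference was 0.16 (SE 0.12). The groups overlapped in both genotypes, and the intervals, -0.24 to 0.26 and -0.08 to 0.39, both hold the 0.26 measured in the 20-month brain.

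Gstm5 had the smallest p of the members in the cohort. It was at 95.4 ± 11.2 CPM (SD, n = 5) with vehicle and 80.8 ± 8.43 CPM (SD, n = 4) with Cmpd60 in APPSWE mice, a log2 difference of -0.24 (SE 0.13, adjusted p = 0.575 in edgeR). In littermates it was at 94.2 ± 14.1 and 81.1 ± 10.9 CPM (SD, n = 5 each), a log2 difference of -0.22 (SE 0.12, adjusted p = 0.999 in edgeR), and the groups overlapped in both genotypes. Gsto1 was at 25.4 ± 9.05 and 22.6 ± 5.79 CPM in vehicle and treated APPSWE mice and at 23.3 ± 1.44 and 18.9 ± 3.88 CPM in littermates, where treated library s152 was lowest at 12.6 CPM. Between the vehicle groups, the log2 difference of APPSWE against littermate mice was 0.05 (SE 0.12) for Gstm1, 0.02 (SE 0.12) for Gstm5 and 0.12 (SE 0.22) for Gsto1.

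The lower members dropped out mostly, but not only, in the libraries with few genes detected. Library s144, with 18518 genes detected, had 1 member at 0, and s146, with 16577, had 0. Gsto2 was at 0 in s140, s141, s144, s152 and s155, Gstm2 in s140, s141 and s152, and Gstt2 and Gstt3 in s152 and s155, while all 10 members had counts in every library of 20-month tissue. Gstt1 had 25 counts in s146, 52 in s141 and 58 in s152, and at least 165 in the other 16 cohort libraries compared. Gstt2, at 0 in s152 and s155, had 51 to 179 counts elsewhere. Standard errors on the log2 scale were accordingly between 0.91 and 1.56 for Gstt2, Gstm2, Gstt3 and Gsto2 in the Cmpd60 comparisons of the cohort, where fitted differences of these genes depend on the values at 0. The part of library quality in the cohort's values was not tested.

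**Figure D4:**
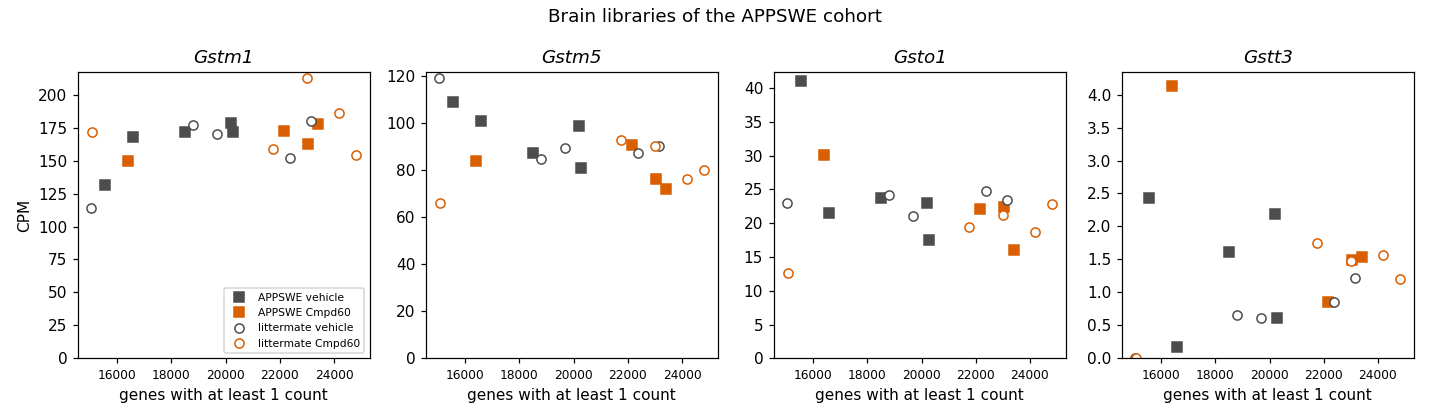
CPM of Gstm1, Gstm5, Gsto1 and Gstt3 in the 19 brain libraries compared in the APPSWE cohort against how many genes had 1 count or more, with points marked by genotype and treatment. The libraries below 17000 genes hold the lowest Gstm1 values of the vehicle groups, 132 CPM in s140 and 114 CPM in s155, and the Gstt3 values at 0.

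Vehicle brains of 20 months and of littermates aged 6 to 7 months were set side by side, although age and cohort cannot be told apart. The age of 6 to 7 months is from the series description and the study, whereas the growth field of each cohort sample repeats the 20-month text. Of the members, 0 were called in edgeR, limma-voom or DESeq2 and 0 had an unadjusted p below 0.05 in edgeR, where 3.37% and 19.4% of all genes did. Gstm1 was at 145.3 ± 12.1 CPM (SD, n = 6) at 20 months and 159 ± 27.3 CPM (SD, n = 5) in the littermates, each scaled in its own set. In the fit of 31 brain libraries scaled together, the log2 difference was -0.14 (SE 0.10, adjusted p = 0.453 in edgeR). Without the cohort libraries under 17000 genes detected, a restriction chosen after the data were seen, it was -0.24 (SE 0.08, adjusted p = 0.0397 in edgeR). For the difference in Cmpd60 response between the cohorts, 0 members were called or had a p below 0.05 in edgeR, against 0.00387% and 5.09% of all genes, and limma-voom and DESeq2 called 0. It was 0.11 (SE 0.14, 95% interval -0.17 to 0.40) for Gstm1.

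Other genes of glutathione use were counted in lists by function. In kidney, 3 of 13 other transferases were called and rose with Cmpd60, where 0.188% of all genes did. They were Gsta4 (1.17, SE 0.15, adjusted p = 0.00323 in edgeR), an enzyme for products of lipid oxidation, Gsta2 (1.02, SE 0.19, adjusted p = 0.0308) and Gstp1 (0.76, SE 0.14, adjusted p = 0.0320). Of 9 genes for the export and processing of conjugates, Abcc4, a transporter, was called and rose (0.48, SE 0.09, adjusted p = 0.0384 in edgeR). In the kidney, 0 genes were called in edgeR among 6 for glutathione synthesis, 9 for its recycling, 7 peroxidases tested, 10 for its breakdown and 10 around NRF2. Of those lists, 0, 2, 2, 5 and 3 genes had an unadjusted p below 0.05, as did 11.3% of all genes. The 5 breakdown genes were 3 higher and 2 lower, and those of the other lists were higher. Gsta4 (1.17, adjusted p = 0.000669 in edgeR), Gstp1 (0.84, adjusted p = 0.00821) and Gsta2 (1.75, adjusted p = 0.0151) had a more positive response in kidney than in heart, a call made for 0.107% of all genes. Since their rise in the same kidney libraries picked these 3 genes, this is no separate support. The exchange of the kidney treatments was run for the members only.

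In heart, the called genes of these lists were Abcc3, a transporter of conjugates (0.98, SE 0.21, adjusted p = 0.0394 in edgeR), Gpx1, a peroxidase (0.55, SE 0.13, adjusted p = 0.0455), and Nqo1, a quinone reductase of the NRF2 list (0.48, SE 0.11, adjusted p = 0.0483), all of which rose, and 0 of 13 other transferases were called. In the 20-month brain 0 genes of the lists were called in edgeR, and the smallest p-values were those of Ggct (-0.22, adjusted p = 0.216 in edgeR), Txnrd1 (-0.13, adjusted p = 0.259) and Gclc (-0.12, adjusted p = 0.264). In the cohort 0 were called in edgeR. The smallest p-values in APPSWE mice were those of Gpx6 (adjusted p = 0.444 in edgeR), a gene at 0 in part of the libraries and so given without a fold, Pgd (-0.42, SE 0.17, adjusted p = 0.444) and Gpx4 (-0.33, SE 0.14, adjusted p = 0.464), and in littermates those of Gpx6, Gstp1 (-0.35, SE 0.17) and Gclm (0.29, SE 0.15), each with an adjusted p of 0.999 in edgeR.

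Members were also compared with each other and with the rest of a set of 12003 genes, which includes the members compared. Across the 34 libraries of 20-month tissue, the mean of each tissue and treatment group was taken off log2 levels before computing Pearson correlations. These describe libraries that share depth and quality and carry no test. Among members, the highest values were 0.60 for Gstm4 and Gstt1, 0.58 for Gstm1 and Gstm4 and 0.52 for Gstm5 and Gstt3. Gsto1 was between -0.25 and 0.08 with the other 8 members compared, which leave out Gsto2 for its low level. For the gene of each class with the highest mean CPM over these libraries, which for theta was Gstt2 although Gstt1 led in brain and heart, the most alike were 2310061I04Rik (0.81), Grina (0.79) and Slc48a1 (0.76) for Gstm1, Pigyl (0.63), Prom1 (0.62) and ENSMUSG00000096199 (0.62) for Gsto1, and Klf9 (0.77), Klf15 (0.75) and Cd99l2 (0.73) for Gstt2.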

How the data were processed

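Per the labels and the study, poly(A) RNA was captured on oligo-dT, and the libraries kept strand. The authors trimmed reads with Trimmomatic 0.32, aligned them with HISAT2 2.1.0 and counted them per Ensembl gene with HTSeq 0.11.0, and deposited raw counts, 1 file per library. The genome build is not given in the sources used here. Each of the 54 files held 54232 genes and 5 summary lines (15.4% to 22.1% of reads), which were left out. Reads not aligned uniquely were 3.08% to 12.2%. Names were found for 32651 genes. No pair of replicates agreed within sampling noise (lowest chi-square per gene 4.48).

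A gene entered a fit if 3 or more of its libraries had counts above 2. Scaling used TMM, and testing used glmQLFTest of edgeR 4.0.16 in R 4.3.3, with Benjamini-Hochberg adjustment over all genes. Each 20-month tissue was fitted alone, the 19 cohort libraries together, the 34 libraries of 20-month tissue together and 31 brain libraries together. The study's own fits used limma-voom, which was an alternative here (limma 3.58.1), as were DESeq2 1.42.0, edgeR with the size factors of DESeq2, all genes unfiltered, a stricter limit (10 counts), leaving out each library, both treatments for library s139, and class sums. Likeness used log2(CPM + 0.5) over genes with at least 1 CPM in each tissue. The tests were checked on simulated counts.

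All 10 members are named. Of the lists of glutathione genes, up to 3 per list past the threshold are named, or the 3 smallest p-values where none passed. Members and lists were chosen with earlier results of these data known.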

Additional observations from a re-analysis of the deposited data

Results flagged for a closer look

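Among 100 sets made of 1 member in 1 group, 5 had a library set apart from the rest of its group by Dixon's criterion, and chance flags about 1 in 20. In the vehicle APPSWE brains, library s140 was low for Gstm1 at 131.54 CPM, with the next at 167.95 CPM, and high for Gsto1 at 40.98 CPM, with the next at 23.696 CPM. This library had 15555 genes detected. Gstm5 was high in littermate vehicle library s155 at 119.2 CPM, with the next at 90.379 CPM, in a library with 15044 genes detected. In kidney, Gstm5 was high in Cmpd60-treated replicate 55 at 139.41 CPM, with the next at 110.24 CPM, and this library had the lowest sum of proximal tubule markers, 6931 CPM. In heart, Gsto1 was high in vehicle replicate 62 at 152.98 CPM, with the next at 118.11 CPM.

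The response to Cmpd60 differed between kidney and heart by the interaction term in edgeR for Gsto1, by 0.74 on the log2 scale, and for Gstm1, by 0.61.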

How the results depend on the processing

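DESeq2 called 2 members in kidney, 1 in brain, 1 in heart and 1 for kidney against brain in the Cmpd60 response, each count 1 above that of edgeR. Leaving out each library gave 0 to 1 members called in kidney and 0 to 1 for kidney against brain. Without the cohort libraries under 17000 genes detected, 1 member was called between 20 and 6 to 7 months. The heart's mu ratio of Cmpd60 to vehicle was 0.959 for Gstm1 alone and 1.02 for the class sum. The APPSWE Gstm1 difference turned to -0.03 without the libraries under 17000 genes and to -0.01 with library s139 as Cmpd60. With each library left out, differences near 0 changed sign, within -0.09 to 0.17 for Gstm2 and -0.07 to 0.01 for Gstm5 in brain, -0.06 to 0.06 for Gstm1 in APPSWE mice, -0.05 to 0.12 for Gstm1 and -0.04 to 0.12 for Gstm5 between the vehicle genotypes, and -0.03 to 0.36 for Gsto2 between kidney and brain. DESeq2's scaling moved the median of all genes between kidney and brain by -0.14 on the log2 scale, and limma-voom moved that between 20 and 6 to 7 months by 0.17. Under the alternatives other than leaving out a library, 441 values kept direction and side of the threshold, 5 gained and 6 lost a call. A further 8 changed direction, most of them with the kidney treatments exchanged, and 1, the heart's mu ratio, moved. The cause of those changes was not tested. With the kidney treatments exchanged, an alternative chosen after the data were seen, 1 member was called for the Cmpd60 response of kidney against heart and 1 against brain. Against heart, Gsto1 was at -0.28 and Gstm1 at -0.52, and against brain they were at -0.48 and -0.86. In the same setting, the vehicle difference of kidney from heart was 0.08 for Gstm4 and 0.12 for Gsto2. No paired analysis was possible because the replicate numbers are not shared between groups. Members at 0 in the cohort were not confined to shallow libraries, since s140, with 2 at 0, had 55871402 counts, and a count of 0 there allowed up to 0.0537 CPM.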
